A study of Rattus norvegicus with 64 samples.

Results

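The 9 genes described here encode molecules with which white blood cells hold on to vessel walls and to each other: Selplg, Itgam, Itgal, Itgb2, Itga4, Itgb1, Itgb7, Icam1 and Cd44. They were found by gene symbol in the deposited tables of 64 rats, each under 1 identifier and in all 64 files, among 26405 genes listed in at least 1 file and 17366 listed in all of them. RNA was sequenced from globin-depleted whole blood taken by cardiac puncture from male Sprague-Dawley rats aged 85 to 90 days, 3 h after the last of 4 injections given 2 h apart. Saline was injected at 22.5 C (6 rats), in a cool environment of 16 C (5 rats) or in a hot environment of 39 C (16 rats). Amphetamine (AMPH) was injected at 22.5 C (22 rats, 14 of a first series and 8 of a later one) or at 16 C (15 rats). The labels class the AMPH rats at 22.5 C and the saline rats at 39 C as hyperthermic, the AMPH rats at 16 C as normothermic, and both other saline groups as controls. All rats had been injected, so that uninjected blood was not measured.

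A leukocyte in flowing blood first rolls on selectins, for which the product of Selplg is the main ligand, and then stops through integrins, which are pairs of an alpha and a beta subunit. Itgb2 encodes the beta subunit that pairs with the product of Itgal on most leukocytes (LFA-1) and with that of Itgam on neutrophils and monocytes (Mac-1), and both pairs bind the product of Icam1 on endothelium and on activated leukocytes. Itga4 encodes an alpha subunit of lymphocytes and monocytes that pairs with the product of Itgb1 to bind Vcam1, or with that of Itgb7 to bind Madcam1 in the gut. Cd44 encodes a receptor for hyaluronan that most leukocytes carry. In whole blood these transcripts come from a mixture of cells, and from them fewer cells of a type cannot be told apart from less RNA per cell. The study also counted blood cells of control and AMPH rats and reported group means with their errors. It found significantly more monocytes and fewer lymphocytes after AMPH, and more neutrophils at marginal significance. Counts per rat were not reported, and these counts were not used here.

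Icam1 and Cd44 were the members called in more than 1 comparison, and the 250 bases before the start of each are printed to show what precedes them. The bases before Itgam are added because that gene varied widely among rats at 22.5 C. The sequences are RefSeq's on the GRCr8 assembly, which is not the rn5 assembly of the count tables, and promoters of 6 of the 9 members were matched (Itgam, Itga4, Itgb1, Itgb7, Icam1 and Cd44). Capitals mark matches on either strand to GGAAATTCC (an NF-kB type site), GAGGAA (a PU.1 type box) or GAANNTTC (a unit of the heat shock element). No 2 matches overlap in these windows.
Icam1, chr8:27829595-27829844, plus strand: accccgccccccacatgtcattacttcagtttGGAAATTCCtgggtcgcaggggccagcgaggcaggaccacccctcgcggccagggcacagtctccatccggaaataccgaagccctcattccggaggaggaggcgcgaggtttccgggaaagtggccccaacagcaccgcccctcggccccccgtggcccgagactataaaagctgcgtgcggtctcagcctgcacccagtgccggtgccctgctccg
Cd44, chr3:109699425-109699674, minus strand: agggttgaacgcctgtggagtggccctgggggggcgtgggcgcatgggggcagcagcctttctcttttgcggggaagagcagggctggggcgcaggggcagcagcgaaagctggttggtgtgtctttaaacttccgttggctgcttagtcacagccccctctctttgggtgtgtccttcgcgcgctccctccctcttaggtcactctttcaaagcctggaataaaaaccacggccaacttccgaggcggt
Itgam, chr1:192089342-192089591, plus strand: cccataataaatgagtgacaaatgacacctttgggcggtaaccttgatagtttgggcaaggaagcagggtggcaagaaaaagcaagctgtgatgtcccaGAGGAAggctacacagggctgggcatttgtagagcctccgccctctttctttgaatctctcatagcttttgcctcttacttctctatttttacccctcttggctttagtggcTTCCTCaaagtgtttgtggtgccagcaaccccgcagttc
The Icam1 window held 1 GGAAATTCC, 218 bases before the gene's start, which 0.287% of 33469 promoters of this length held. The Itgam window held 2 matches to GAGGAA, 151 and 39 bases before the start, and 23.3% of the promoters held at least 1. The Cd44 window held none of the 3 motifs, and none of the 6 member windows held GAANNTTC, which 7.23% of the promoters held. A match describes letters and does not show that a factor was bound.

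The 64 libraries held 19055615 to 40530319 expected counts each, of which 10 hemoglobin genes took 2.85% to 33.3%. In all, 5 rats exceeded the study's limit of 5000 counts for Mb, the myoglobin gene (2 saline at 22.5 C, 2 AMPH at 16 C and 1 saline at 39 C), and were left out unless stated. The file names began with 14 different codes whose meaning the labels do not give, called file codes here. Saline at 22.5 C shared no code with saline at 39 C or at 16 C, so that code and environment cannot be told apart there. Of the listed markers, 8 of 9 for monocytes and 8 of 9 for B cells were in the files. All those of neutrophils, T cells, natural killer cells and platelets were. The 7 natural killer cell genes had 8 identifiers, which are counted separately below. Every marker of these lists in the files was counted in every group. Rat 19 of saline at 22.5 C and rats 17 and 21 of AMPH at 22.5 C lay at the edges of their groups. The summed level of 10 neutrophil markers was 16591 CPM (counts scaled to a common library size) in saline rat 19. It was 1231 to 7063 in the other 3 saline rats, and 2707 and 11322 in saline rats 20 and 22, left out for Mb. In the later AMPH series it was 1857 in rat 17, 36368 in rat 21 and 8289 to 20877 in the others. Rat 13 of the first series had 31613. Levels below are CPM with TMM scaling and compare rats for 1 gene, not genes with each other, since transcript lengths were not used.

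**Figure D1:**
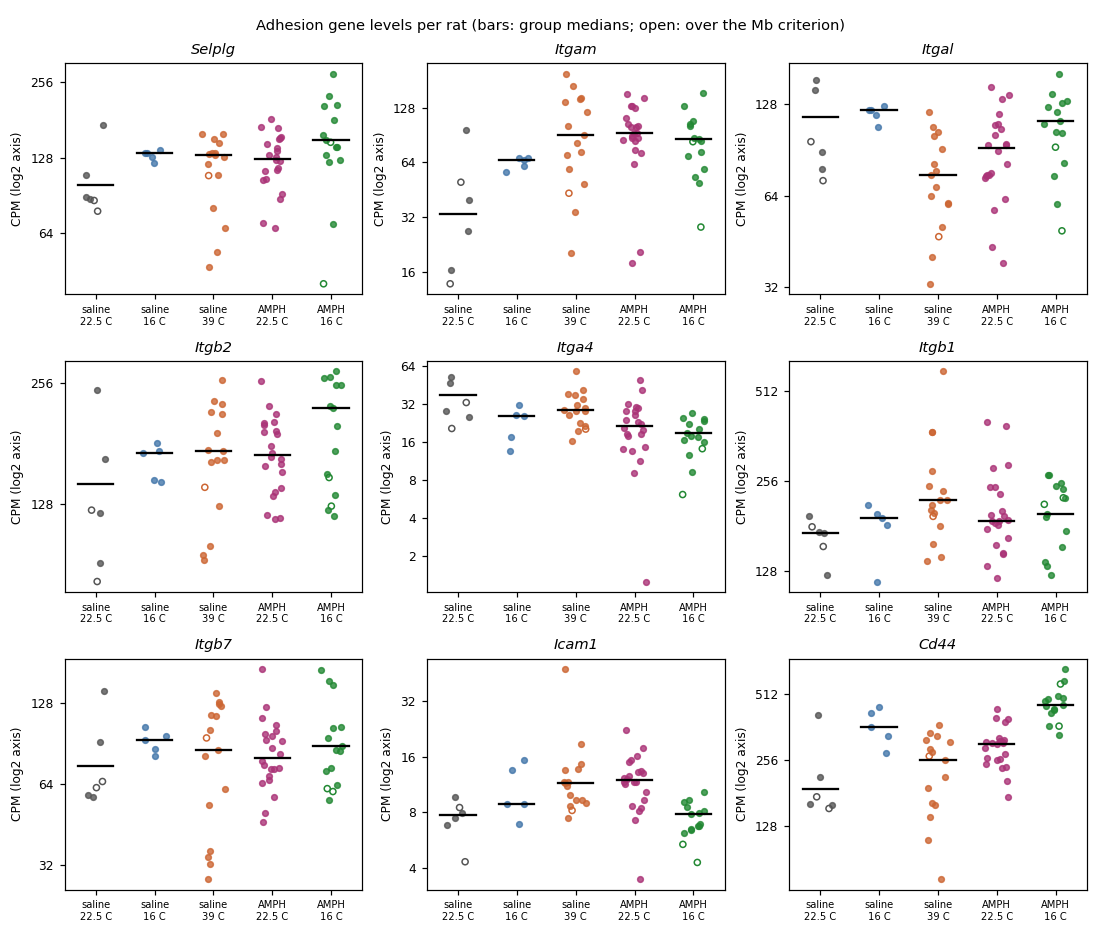
Levels of the 9 genes in CPM on a log2 axis, with 1 point per rat and a bar at the median of each of the 5 groups; open points are the rats over the Mb limit. The Cd44 median was highest in AMPH at 16 C (453 CPM), and the Icam1 medians were lowest in saline at 22.5 C and AMPH at 16 C (7.67 and 7.84 CPM).

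Between the AMPH groups, Cd44 was lower and Icam1 higher at 22.5 C than at 16 C. In the 5 file codes that held both groups, Cd44 ranged from 205 to 435 CPM (median 296) in 10 rats at 22.5 C and from 332 to 662 CPM (median 476) in 9 rats at 16 C. Of the 10 rats at 22.5 C, 8 lay below all 9 rats at 16 C, so that the groups overlapped only at their edges. The log2 difference, fitted by edgeR with file code as a covariate, was -0.70 (SE 0.14, adjusted p = 0.0026), or 0.617-fold. Icam1 ranged from 8.13 to 17.9 CPM (median 12.1) at 22.5 C and from 6.17 to 10.3 CPM (median 7.96) at 16 C. Here 7 of the 10 rats at 22.5 C lay above all 9 rats at 16 C, with a log2 difference of 0.56 (SE 0.14, adjusted p = 0.011), or 1.47-fold. These 2 of 9 members stand beside 15.9% of 12091 genes called in the same fit (7.95% higher and 7.96% lower at 22.5 C).

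Both differences had the same direction in each of the 5 codes, from -1.11 to -0.37 for Cd44 and from 0.25 to 0.89 for Icam1. In 1 fit of all 5 groups, Cd44 stayed past the threshold (-0.54, edgeR adjusted p = 0.037) and Icam1 did not (0.58, adjusted p = 0.053). Levels were also set relative to Ptprc, the gene of the leukocyte common antigen CD45. In the rats of these codes, Cd44 stood at 41.6 to 53.5 counts per 100 Ptprc counts at 22.5 C and at 53.9 to 84.2 at 16 C, with no overlap. Over all 22 and 13 rats of the 2 groups the ranges overlapped (20.0 to 125 and 53.5 to 84.2). Icam1 in the rats of these codes stood at 1.16 to 3.17 per 100 Ptprc counts at 22.5 C and at 0.825 to 1.31 at 16 C.

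The same rats differed in other measures. Hemoglobin took a median of 5.38% of counts at 22.5 C and 10.4% at 16 C. The summed neutrophil markers ranged from 7833 to 15875 CPM (median 12384) and from 11454 to 27548 CPM (median 17265), with 0 of 10 markers higher and 1 lower in the fit. The summed endothelial markers had medians of 67.8 and 35.5 CPM, with 1 of 3 tested markers higher, and 4 of 8 monocyte markers were higher in the fit although their summed medians were 595 and 603 CPM. The summed natural killer cell markers had medians of 77.5 and 206 CPM, with 1 of 8 identifiers lower. The part of these cells in the differences was not tested. With hemoglobin and red cell genes left out of the counts, Cd44 (-0.69) and Icam1 (0.56) differed by as much as with them.

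The other 7 members did not pass the threshold between the AMPH groups. The selectin ligand gene Selplg ranged from 105 to 170 CPM at 22.5 C and from 123 to 277 CPM at 16 C (log2 difference -0.44, SE 0.16, edgeR adjusted p = 0.064). Itgal, the alpha subunit of LFA-1, ranged from 73.3 to 137 CPM and from 103 to 162 CPM, with 7 of 10 rats at 22.5 C below all rats at 16 C (-0.40, SE 0.14, adjusted p = 0.051). Itgam, the alpha subunit of Mac-1, was nearly level (-0.016, 95% interval -0.35 to 0.32), and the shared beta subunit Itgb2 gave -0.28 (95% interval -0.57 to 0.012). The log2 differences of Itga4, Itgb1 and Itgb7 were 0.14, 0.27 and -0.21, with adjusted p of 0.62, 0.40 and 0.52.

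AMPH at 16 C was also compared with saline at 39 C, and 7 of the AMPH rats entered both comparisons, which are therefore not independent. Of the 9 members, 3 were called, beside 12.5% of 12096 genes (5.59% higher and 6.92% lower after AMPH). Cd44 ranged from 332 to 662 CPM (median 444) in 10 rats given AMPH at 16 C and from 215 to 370 CPM (median 315) in 7 saline rats at 39 C, with 8 of the 10 above all 7 (0.57, SE 0.14, edgeR adjusted p = 0.016). Icam1 ranged from 6.17 to 10.3 CPM (median 7.30) and from 7.39 to 13.5 CPM (median 11.5), with 5 of the 10 below all 7 (-0.51, SE 0.15, adjusted p = 0.033). Itga4, an alpha subunit of lymphocytes and monocytes, ranged from 9.36 to 27.3 CPM (median 19.7) and from 21.6 to 41.7 CPM (median 28.4), with 6 of the 10 below all 7 (-0.62, SE 0.19, adjusted p = 0.042).

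In the 5 codes that held both groups, Cd44 was higher after AMPH at 16 C in all 5 (0.35 to 1.17), Itga4 was lower in all 5 (-1.22 to -0.064) and Icam1 was lower in 4 (-0.81 to 0.11). These calls depended on the fit. Without a filter on low counts Cd44 alone was called, while Icam1 and Itga4 had edgeR adjusted p of 0.053 and 0.054. In 1 fit of all 5 groups Icam1 lost its call (-0.49, adjusted p = 0.11).

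Beside these differences, the summed neutrophil markers had medians of 19816 CPM after AMPH at 16 C and 9894 CPM at 39 C, with 2 of 10 markers higher, and the summed monocyte markers of 606 and 768 CPM, with 4 of 8 lower. The summed endothelial markers had medians of 34.5 and 59.4 CPM, with 2 of 3 tested markers lower, and 2 of 8 B cell markers were lower at nearly equal summed medians (207 and 208 CPM). Hemoglobin took medians of 10.2% and 4.32% of counts. The part of these cells was not tested, and with hemoglobin and red cell genes left out the same number of members, 3, was called. Of the members that were not called, Itgb7 lay below all 7 rats at 39 C in 6 of 10 rats given AMPH at 16 C (-0.46, SE 0.18, adjusted p = 0.10), and Itgam gave -0.33 (95% interval -0.79 to 0.13).

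**Figure D2:**
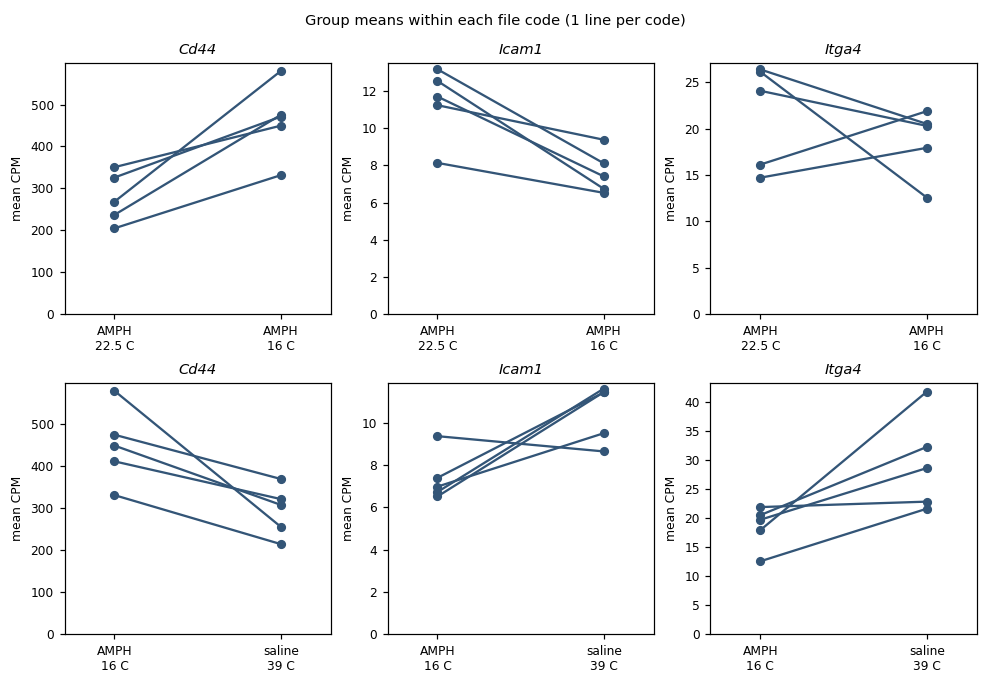
Mean CPM of Cd44, Icam1 and Itga4 in the 2 groups of each comparison, with 1 line per file code (5 codes in each row). Cd44 changes in 1 direction in all 5 codes of each row, and Icam1 does so in 5 of 5 codes between the AMPH groups and in 4 of 5 codes against saline at 39 C.

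AMPH was compared with saline in the same environment. At 22.5 C the labels class the AMPH rats as hyperthermic and the saline rats as controls. Per the study's methods, overheated AMPH rats were also cooled on ice. Drug, body temperature and cooling therefore cannot be told apart there. At 22.5 C, the 8 AMPH rats of the later series were set against 4 saline rats, and 7 of the 8 shared a code with them. None of the 9 members was called by edgeR, and neither was any of 12853 genes (0%); 0 members had an unadjusted p under 0.05 and DESeq2 called 0 members. Itgam stood at 26.7, 16.2, 96.2 and 39.5 CPM in saline rats 17, 18, 19 and 21, and at 83.4, 104, 20.5, 87.3, 131, 144, 17.9 and 101 CPM in AMPH rats 15 to 22. Saline rat 19 thus lay among the AMPH rats, and AMPH rats 17 and 21 lay among the saline rats. The log2 difference was 0.95 (95% interval -0.32 to 2.22, adjusted p = 0.52), and within the 2 shared codes it was 1.23 and 1.35. Without saline rat 19 and AMPH rat 17, left out after their values had been seen, it was 1.8 (edgeR adjusted p = 0.086).

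Cd44 stood at 160, 162, 409 and 215 CPM in the 4 saline rats and at 175 to 395 CPM (median 311) in the 8 AMPH rats, a log2 difference of 0.35 (95% interval -0.29 to 1.00). Without the same 2 rats it was 0.84 (edgeR adjusted p = 0.072). The highest saline value and the lowest AMPH value were those of these 2 rats. Icam1 stood at 7.45, 6.83, 9.66 and 7.90 CPM in the saline rats and at 3.47 to 16.1 CPM (median 11.7) in the AMPH rats, of which 6 lay above all 4 saline rats (0.48, 95% interval -0.24 to 1.21). Itga4 stood at 53.1, 47.5, 28.1 and 25.4 CPM in the saline rats and at 1.26 to 50.2 CPM (median 20.5) in the AMPH rats (-0.74, 95% interval -1.93 to 0.45). The lowest Itga4 value, 28 counts, was that of AMPH rat 21. Beside these levels, the summed neutrophil markers had medians of 15011 CPM after AMPH and 4620 CPM after saline. Medians were 583 and 258 CPM for the monocyte markers and 2112 and 1444 CPM for the platelet markers. They were lower after AMPH for the markers of T cells (304 and 478 CPM), B cells (283 and 454 CPM) and natural killer cells (112 and 266 CPM). No marker of these lists was called, and the part of these cells was not tested. The median log2 difference of the 9 members was 0.19, beside -0.011 over all genes tested.

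At 16 C, none of the 9 members was called by edgeR between 13 AMPH and 5 saline rats, beside 0.444% of 12396 genes, and DESeq2 called 0 members. There were 3 members with an unadjusted p under 0.05. Itgam stood at 67.8, 67.8, 61.2, 65.8 and 56.7 CPM in the saline rats and at 49.2 to 154 CPM (median 86.3) in the AMPH rats, 10 of which lay above all saline rats (0.50, 95% interval 0.034 to 0.96, adjusted p = 0.28). Cd44 stood at 276, 327, 418, 447 and 361 CPM and at 332 to 662 CPM (median 453), with 8 of 13 above (0.37, adjusted p = 0.23). Icam1 stood at 8.83, 15.3, 6.91, 13.5 and 8.90 CPM and at 6.17 to 10.3 CPM (median 7.84), with 6 of 13 below (-0.46, adjusted p = 0.18). Of the AMPH rats, 1 shared a code with the saline rats, and it differed from them by 0.76 for Itgam, 0.40 for Cd44 and -0.60 for Icam1. The summed neutrophil markers had medians of 15976 CPM after AMPH and 21652 CPM after saline, and the summed monocyte markers of 609 and 479 CPM, with none called. The summed B cell markers had medians of 182 and 421 CPM, with 1 of 8 called lower after AMPH. The part of these cells was not tested.

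Icam1 thus had opposite signs in the cool and the 22.5 C environment. The difference between the 2 AMPH effects was 0.90 on the log2 scale (SE 0.47, 95% interval -0.039 to 1.83, unadjusted p = 0.060, edgeR adjusted p = 0.69). By edgeR it passed the threshold for 0 of the 9 members and for 0% of 14000 genes, with 0 members at an unadjusted p under 0.05 and 0 called by DESeq2. For Cd44 it was -0.080 (95% interval -0.89 to 0.73) and for Itgam 0.24 (95% interval -1.07 to 1.54).

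**Figure D3:**
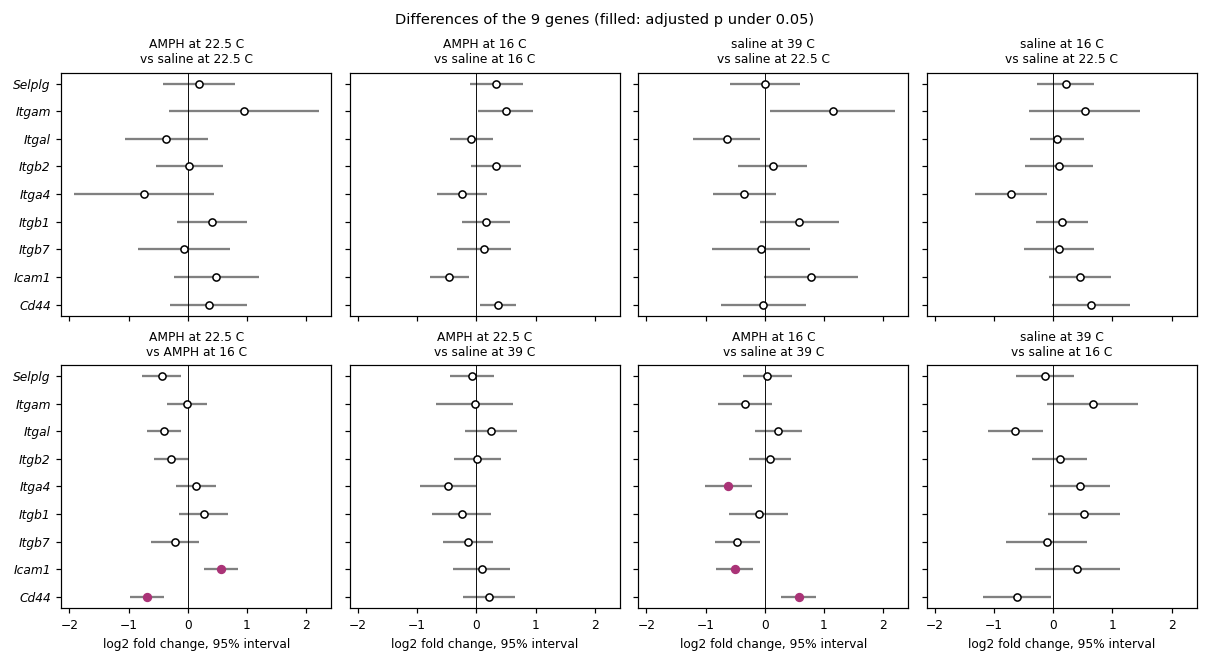
Log2 fold changes of the 9 genes with 95% intervals in 8 comparisons, positive where the group named first was higher; filled points passed an adjusted p of 0.05. The filled points are Icam1 and Cd44 between the AMPH groups and Itga4, Icam1 and Cd44 between AMPH at 16 C and saline at 39 C.

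The hot and the cool environment were compared with 22.5 C in rats given saline alone. At 39 C against 22.5 C (15 and 4 rats), edgeR called 0 of the 9 members, beside 16.5% of 12986 genes (7.11% higher and 9.37% lower), with 2 members at an unadjusted p under 0.05, and DESeq2 called Itgam. Itgam ranged from 20.2 to 197 CPM (median 90.6) at 39 C, with 7 of 15 rats above all 4 saline rats at 22.5 C (1.14, SE 0.50, adjusted p = 0.11). It reached 1.82 (edgeR adjusted p = 0.036) without saline rat 19, the highest of these 4 for Itgam, where 14.9% of genes were called. With the rats over the Mb limit kept, where 34% of genes were called, Itgam (1.24, adjusted p = 0.033) and Icam1 (0.84, adjusted p = 0.045) were called. Itgal ranged from 32.7 to 121 CPM (median 75.1) at 39 C and stood at 143, 78.1, 154 and 89.4 CPM at 22.5 C, with 9 of 15 rats below all 4 (-0.64, adjusted p = 0.099).

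The rats at 39 C were widely spread. Icam1 ranged from 7.39 to 47.6 CPM (median 11.5), with the highest value in rat 9, and 10 of 15 rats lay above all 4 saline rats at 22.5 C (0.78, adjusted p = 0.15). Itgb1, which platelets also carry, ranged from 139 to 595 CPM (median 221), with the highest value in rat 8, and stood at 195, 172, 171 and 124 CPM at 22.5 C (0.58, adjusted p = 0.20). Rats 8 and 9 were of the same file code, which held 5 of the 15 rats at 39 C. Its mean Icam1 was 20.8 CPM, against 8.65 to 11.6 in the other codes. Its means were 155 for Cd44 (others 190 to 370), 42.4 for Itgb7 (61.1 to 129) and 317 for Itgb1 (139 to 374). The fit had no code term, so that spread among rats and among codes was not separated. The summed monocyte markers had medians of 764 CPM at 39 C and 258 CPM at 22.5 C, and the summed T cell markers of 147 and 478 CPM, with 0 of 8 monocyte markers called and 11 of 11 T cell markers lower. The summed platelet markers had medians of 3165 and 1444 CPM, with 7 of 8 higher, and the summed endothelial markers of 66.9 and 25.9 CPM, with 2 of 5 higher. Of 8 identifiers of the 7 natural killer cell markers, 5 were lower. The part of these cells was not tested.

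At 16 C against 22.5 C (5 and 4 rats), edgeR called 0 of the 9 members, beside 0.00817% of 12238 genes, 1 member (Itga4, -0.71) had an unadjusted p under 0.05, and DESeq2 called 0 members. With 1 rat left out at a time, members were called only without saline rat 19, in 5 and 3 rats. Then Selplg (0.50, edgeR adjusted p = 0.038), Itgam (1.26, adjusted p = 0.013) and Cd44 (1.07, adjusted p = 0.0098) were higher at 16 C, where 16.8% of 12452 genes were called. That rat had the highest Itgam and Cd44 of the 4 saline rats at 22.5 C. Leaving out the highest rat of the lower group widens a difference by itself. With saline rat 19 kept, the log2 differences were 0.21, 0.53 and 0.64. The summed neutrophil markers had medians of 21652 CPM at 16 C and 4620 CPM at 22.5 C. Medians were 479 and 258 CPM for the monocyte markers and 2848 and 1444 CPM for the platelet markers. They were lower at 16 C for the markers of T cells (360 and 478 CPM), B cells (421 and 454 CPM) and natural killer cells (215 and 266 CPM). No marker of these lists was called, and the part of these cells was not tested.

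At 39 C against 16 C (15 and 5 rats), edgeR called 0 of the 9 members, beside 15% of 12462 genes (8.41% higher and 6.58% lower), with 2 members at an unadjusted p under 0.05, and DESeq2 called Itgal. Itgal stood at 108, 118, 126, 123 and 123 CPM at 16 C, and 14 of the 15 rats at 39 C lay below all 5 (-0.64, SE 0.22, adjusted p = 0.054). Cd44 ranged from 73.7 to 370 CPM (median 256) at 39 C, with 8 of 15 rats below all 5 rats at 16 C (-0.61, adjusted p = 0.14). The 1 rat at 39 C that shared the code of the rats at 16 C differed from them by -0.63 for Itgal and by 0.038 for Cd44. Beside these values, the summed neutrophil markers had medians of 7313 CPM at 39 C and 21652 CPM at 16 C, with 1 of 10 markers higher and 3 lower. The summed T cell markers had medians of 147 and 360 CPM (2 of 11 lower), the natural killer cell markers of 140 and 215 CPM (3 of 8 identifiers lower) and the monocyte markers of 764 and 479 CPM (2 of 8 higher). The part of these cells was not tested.

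Between AMPH at 22.5 C and saline at 39 C (10 and 13 rats of 7 shared codes), edgeR called 0 of the 9 members, beside 0.133% of 12055 genes (0.116% higher), 0 members had an unadjusted p under 0.05, and DESeq2 called 0 members. The 95% intervals of the log2 differences, which hold the sizes that these rats do not exclude, were -0.22 to 0.66 for Cd44, -0.39 to 0.57 for Icam1, -0.45 to 0.30 for Selplg and -0.38 to 0.41 for Itgb2. Itga4 came nearest to the threshold (-0.47, unadjusted p = 0.050, edgeR adjusted p = 0.38) and was lower after AMPH in 6 of 7 codes.

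By group median, Cd44 ran from saline at 22.5 C (189 CPM) through saline at 39 C (256), AMPH at 22.5 C (303) and saline at 16 C (361) to AMPH at 16 C (453). Icam1 ran from saline at 22.5 C (7.67 CPM) through AMPH at 16 C (7.84), saline at 16 C (8.90) and saline at 39 C (11.5) to AMPH at 22.5 C (11.9). Itga4 ran from AMPH at 16 C (19.1 CPM) through AMPH at 22.5 C (21.6), saline at 16 C (25.9) and saline at 39 C (28.8) to saline at 22.5 C (37.8). Neighbours in these orders did not pass the threshold wherever they were compared. Itgam medians lay between 33.1 CPM in saline at 22.5 C and 93.0 CPM in AMPH at 22.5 C, and Itgal medians between 75.1 CPM in saline at 39 C and 123 CPM in saline at 16 C. The medians of Selplg (99.4 to 150 CPM), Itgb2 (144 to 222 CPM), Itgb1 (172 to 221 CPM) and Itgb7 (74.8 to 93.2 CPM) lay closer together.

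The ratio of Itgam to Itgal, the alpha subunits that share the product of Itgb2, was higher at 39 C than in both other saline groups. As the log2 of counts plus 1 it averaged -1.64 ± 0.84 (SD, n = 4) in saline at 22.5 C, -0.91 ± 0.18 (SD, n = 5) in saline at 16 C and 0.26 ± 0.81 (SD, n = 15) in saline at 39 C. After AMPH it averaged -0.36 ± 0.39 (SD, n = 13) at 16 C and -0.0098 ± 0.78 (SD, n = 22) at 22.5 C. The difference between 39 C and 22.5 C was 1.89 (two-sided exact permutation p = 0.0010, adjusted over 16 tests p = 0.017), and that between 39 C and 16 C was 1.16 (exact permutation p = 0.0059, adjusted p = 0.047). At 16 C the ratio was higher after AMPH than after saline by 0.55 (exact permutation p = 0.0092, adjusted p = 0.049). The last 2 calls were lost without saline rat 2, 3, 4 or 5 of 16 C, with adjusted exact permutation p of up to 0.084 and 0.14. Between AMPH and saline at 22.5 C the difference was 1.36 in 8 and 4 rats (exact permutation p = 0.061, adjusted p = 0.19) and 1.63 with all 22 AMPH rats (adjusted permutation p = 0.016). The 14 AMPH rats of the first series shared no file code with these saline rats, so that code and treatment cannot be told apart for them. The ratio of Itgb7 to Itgb1, the beta subunits that share the product of Itga4, passed the threshold in none of the 8 comparisons (adjusted exact permutation p from 0.36 to 0.88).

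**Figure D4:**
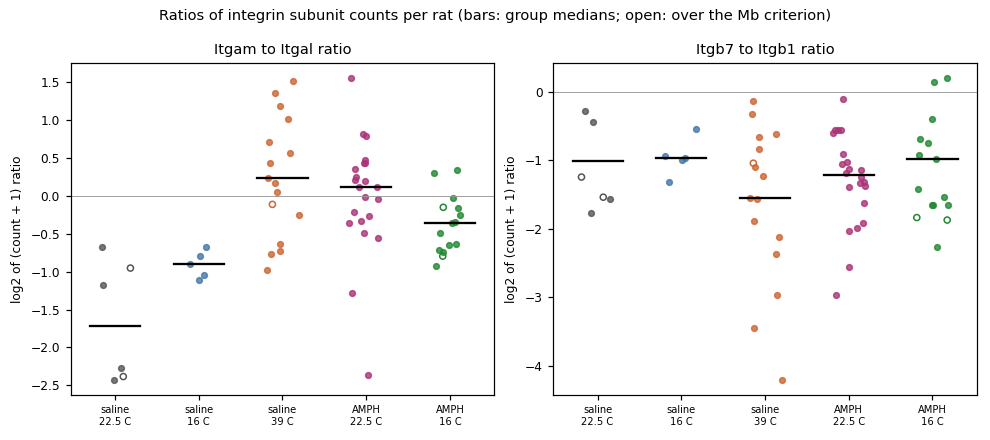
Log2 ratios of counts plus 1 for Itgam to Itgal and Itgb7 to Itgb1, with 1 point per rat and a bar at each group median; open points are rats over the Mb limit. The Itgam to Itgal medians are -1.72 in saline at 22.5 C and 0.23 in saline at 39 C, while the medians of Itgb7 to Itgb1 lie between -1.55 and -0.97.

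Across the 64 rats, with the mean of each file code removed, Itgb2 varied with both of its partners (Pearson r = 0.65 with Itgam and 0.54 with Itgal), while Itga4 varied little with its own (r = -0.081 with Itgb1 and 0.20 with Itgb7). These values are descriptions over rats that share treatments, depth and the same libraries for both genes. Itgam varied with the summed monocyte markers (r = 0.82) and less with the neutrophil markers (0.60), and Cd44 with the neutrophil (0.71) and monocyte (0.64) markers. Itgb1 varied with the platelet (0.73) and endothelial (0.76) markers, and Itga4 inversely with the neutrophil markers (-0.60).

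Among 8458 genes with at least 10 counts in every rat, the patterns most like that of Cd44 were those of Prr13, Pla2g7 and RGD1310351 (r = 0.91, 0.88 and 0.86). Those most like Itgam were Cort, Csf2rb, a subunit of cytokine receptors of myeloid cells, and Lbp (0.91, 0.88 and 0.88). The closest to Icam1 were weaker: Mvd, Arhgap39 and Irak3 (0.70, 0.69 and 0.69). The closest gene was Mov10 for Selplg (0.84), Arhgap27 for Itgal (0.83), Flii for Itgb2 (0.76), Fli1 for Itga4 (0.82), Gmpr for Itgb1 (0.90) and Mical1 for Itgb7 (0.84).

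Other genes of adhesion were read from 4 lists. Among selectins and the enzymes of selectin ligand synthesis, the gene called in most comparisons was St3gal4, a sialyltransferase that helps to build selectin ligands. The comparisons with saline at 39 C share rats of that group. St3gal4 was higher after AMPH at 16 C than in saline at 39 C (1.84, edgeR adjusted p = 2.0e-04). There 1 of 12 listed genes tested was higher and 0 lower, beside 5.59% and 6.92% of all genes. St3gal4 was also higher after AMPH at 22.5 C than in saline at 39 C (1.48, adjusted p = 0.036). Here 1 of 13 was higher and 0 lower, beside 0.116% and 0.0166% of all genes. St3gal4 was lower in saline at 39 C than at 16 C (-1.72, adjusted p = 7.0e-04). In that fit 0 of 13 were higher and 1 lower, beside 8.41% and 6.58% of all genes. It was lower after AMPH at 22.5 C than at 16 C (-0.74, adjusted p = 0.028). In this fit 0 of 13 were higher and 1 lower, beside 7.95% and 7.96% of all genes. At 39 C against 22.5 C in saline, 1 of 13 was higher (B4galt1, a galactosyltransferase, 0.66, adjusted p = 0.021) and 1 lower (Spn, the gene of leukosialin, -1.22, adjusted p = 0.028). These stand beside 7.11% higher and 9.37% lower of all genes, and St3gal4 was not called there. Selp, the selectin of platelets and endothelium, gave log2 differences of 0.16 to 1.65 over the 8 comparisons, none past the threshold.

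Of the other integrin subunits, 4 of 14 tested were higher and 0 lower at 39 C than at 22.5 C in saline (7.11% and 9.37% of all genes), with a median log2 difference of 0.74 beside -0.0099 over all genes, and 4 of 14 were higher and 0 lower than at 16 C (8.41% and 6.58% of all genes; median 0.91 beside 0.075). They were in both cases Itgax, a partner of the Itgb2 product on myeloid and dendritic cells (0.95 and 0.77), Itgb3, which pairs with the Itga2b product on platelets (2.16 and 2.00), Itgav (0.82 and 1.58) and Itga6 (1.70 and 2.00). The 2 comparisons share the rats at 39 C. Itga2b itself gave 1.61 (edgeR adjusted p = 0.054) and 1.25 (adjusted p = 0.090). The summed levels of 8 platelet markers, which include Itga2b, ranged from 1918 to 9313 CPM at 39 C, from 678 to 1827 CPM at 22.5 C and from 1833 to 3699 CPM at 16 C, and their part was not tested. After AMPH, Itgb5 was higher (0.79, adjusted p = 0.025) and Itga5, a subunit of the fibronectin receptor, lower (-0.96, adjusted p = 0.0013) at 22.5 C than at 16 C. That was 1 of 13 in each direction, beside 7.95% higher and 7.96% lower of all genes. Between AMPH at 16 C and saline at 39 C, 0 of 12 were higher and 2 lower, beside 5.59% and 6.92% of all genes. Those lower were Itgav (-0.77, adjusted p = 0.020) and Itgb5 (-0.86, adjusted p = 0.040).

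Among the immunoglobulin-type and other partners, 5 of 15 were higher and 1 lower at 39 C than at 22.5 C in saline, with Cd226 (1.88, edgeR adjusted p = 0.014), Esam (1.90, adjusted p = 0.020), F11r (1.39), Alcam (1.27) and Cd99 (0.82) higher and Cd2, an adhesion receptor of T cells (-1.57, adjusted p = 0.0082), lower, beside 7.11% higher and 9.37% lower of all genes. Against 16 C, 2 of 14 were higher and 3 lower, with Esam (1.49) and Alcam (1.38) higher and Icam2, another ligand of LFA-1 (-1.34, adjusted p = 0.0048), Cd2 (-1.10) and Cd48 (-0.73) lower, beside 8.41% higher and 6.58% lower of all genes. Between the AMPH groups 1 of 13 was higher at 22.5 C, Esam (0.77, adjusted p = 0.031), and 1 lower, Cd97 (-0.84, adjusted p = 0.0052). Of all genes in that fit, 7.95% were higher and 7.96% lower. Between AMPH at 16 C and saline at 39 C, Cd48 was higher (0.59, adjusted p = 0.0057) and Alcam lower (-1.02, adjusted p = 0.0058). That was 1 of 13 in each direction, beside 5.59% higher and 6.92% lower of all genes.

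Of the 19 genes of integrin activation, 3 were higher and 1 lower at 39 C than at 22.5 C in saline, and 2 were higher and 1 lower than at 16 C, beside 7.11% higher and 9.37% lower, and 8.41% higher and 6.58% lower, of all genes in these fits. Those higher besides Vcl were Ilk (0.98) and Syk (0.82) against 22.5 C and Fyb (0.81) against 16 C, and those lower were Skap1 (-1.73) and Rap1a (-0.56). Vcl, the gene of vinculin, was higher in both (1.14, edgeR adjusted p = 0.016, and 1.08, adjusted p = 0.0071). Apbb1ip, an adaptor that links Rap1 to talin, was lower after AMPH at 22.5 C than at 16 C (-0.58, adjusted p = 0.017), and Vcl was higher (0.56, adjusted p = 0.030). That was 1 of 19 in each direction, beside 7.95% higher and 7.96% lower of all genes. Rap1a was higher after AMPH at 16 C than in saline at 39 C (0.48, adjusted p = 0.022), and Syk was lower (-0.69, adjusted p = 0.025). That was 1 of 19 in each direction, beside 5.59% higher and 6.92% lower of all genes. Of the genes of the 4 lists, edgeR called 0 in either direction between AMPH and saline at 22.5 C or between saline at 16 C and at 22.5 C.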

How the data were processed

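Whole blood RNA of 64 rats was measured. Per the study's methods, globin-depleted, polyadenylated RNA was sequenced with strand kept, and the submitters' processing notes name CASAVA 1.8.2, Bowtie 0.12.9, RSEM 1.2.0 and rn5. The deposited files hold RSEM expected counts per gene, not normalized, in 6 gene lists. The authors replaced outlying values within groups in their own analysis, which was not repeated here.

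Expected counts were rounded. Rats over 5000 Mb counts were left out, after a criterion of the study. Each comparison was fitted over all genes listed in its files with edgeR 4.0.16 (R 4.3.3, TMM, quasi-likelihood test), keeping genes with at least 10 counts in as many rats as the smaller group, and p-values were adjusted by Benjamini-Hochberg (threshold 0.05). The comparisons of AMPH at 22.5 C with AMPH at 16 C, and of each with saline at 39 C, used rats of shared file codes with code as a covariate. The difference of AMPH effects came from 1 fit of all groups with code. Ratios were compared by two-sided exact permutation (within codes where code was a covariate). DESeq2 1.42.0, other normalization, filters, rats and covariates were alternatives. On simulated data edgeR stayed within the limit set for false calls, but that limit was looser than the threshold of 0.05. Staying within it does not show that false calls were held to 0.05, in the simulation or in these data. DESeq2 exceeded that limit for 8 against 4 rats, so that calls by DESeq2 alone are not relied on. Libraries held 19055615 to 40530319 counts.

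The members, lists and tests were chosen with earlier results of these data known. The text names all members, at most 5 called list genes per comparison by adjusted p, a few fixed genes (Selp, Itgax and Itga2b among them), and genes closest to a member. Other list genes were named only to account for counts of 5 or fewer, after their values had been seen. Some genes that the rule names are not reported here. Replicate numbers were not used to pair the rats in the main fits. Same-numbered rats deviated together with correlations from -0.26 to 0.60, and not every pair of any comparison exceeded 0.1. Of the pairs of AMPH and saline rats, 3 of 4 exceeded it at 22.5 C and 0 of 4 at 16 C. These values do not settle whether the numbers mark pairs. No 2 libraries of a group agreed within counting noise (lowest chi-square per gene 52.4).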

Additional observations from a re-analysis of the deposited data

Results flagged for a closer look

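Each member was screened for a rat far from the rest of its group in 33 groups of values, where chance flags about 1 in 20, and 2 such rats were found. Itgb1 in rat 1 of saline at 16 C stood at 6.88 log2 CPM with its nearest neighbour at 7.51, or at 118 CPM against 182 to 213 CPM in the other 4 rats. Itga4 in rat 21 of AMPH at 22.5 C stood at 0.37 log2 CPM with its nearest neighbour at 3.84, and rested on 28 counts. That rat also had the highest summed neutrophil markers of its group (36368 CPM), whose part in the value was not tested.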

How the results depend on the processing

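Of 954 refitted differences of members, 64 changed sign, 59 of them where the difference was smaller than its standard error, and the cause of each change below was not tested. Members called between the AMPH groups were 2 in the report, 3 with DESeq2's size factors, 4 by its Wald test (Selplg and Itgal besides) and 1 in a fit of all groups with code. Between AMPH at 16 C and saline at 39 C they were 3 in the report, 4 over all rats without codes, 2 in the fit of all groups, 1 without a filter on low counts and 0 with the replicate number as a block (6 rats a group; 2 in the same rats without the block). Between saline at 39 C and at 22.5 C they were 0 in the report, 1 by the Wald test, 2 with the rats over the Mb limit and 0 to 1 when leaving out 1 rat. Between saline at 16 C and at 22.5 C they were 0, and 0 to 3 when leaving out 1 rat, the 3 without saline rat 19. Between saline at 39 C and at 16 C they were 0, and 1 with DESeq2's size factors and by its Wald test. Between AMPH and saline at 16 C they were 0, and 2 in the rats of the block fit without the block, a setting added after the data were seen. The replicate block changed no other count of members called.

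The Itgam to Itgal ratio ranged from 0.50 to 0.61 (AMPH against saline at 16 C) and from 1.11 to 1.22 (saline at 39 C against 16 C) when leaving out 1 rat, and was 1.63 with all 22 AMPH rats at 22.5 C. The Itgb7 to Itgb1 ratio turned to 0.62 between AMPH at 16 C and saline at 39 C over all rats without codes, and ranged from -0.18 to 0.0091 (AMPH against saline at 16 C) and from -0.19 to 0.31 (saline at 16 C against 22.5 C) when leaving out 1 rat.

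All other sign changes were in differences that were not called. With the replicate block, AMPH against saline at 22.5 C gave Itgb2 -0.060 and Itgb7 0.17, AMPH against saline at 16 C gave Itgb7 -0.40, the AMPH groups gave Itgb1 -0.015 and Itgb7 0.16, AMPH at 22.5 C against saline at 39 C gave Selplg 0.17, Itgam 0.46, Itgb7 0.41 and Icam1 -0.16, AMPH at 16 C against saline at 39 C gave Itgam 0.011, and saline at 39 C against 16 C gave Selplg 0.10 and Itgb7 0.25. In the same rats without the block these were Itgb2 -0.14 and Itgb7 0.16, Itgb7 -0.39, Itgb7 0.10, Selplg 0.11, Itgam 0.23, Itgb7 0.16 and Icam1 -0.35, and Selplg 0.10 and Itgb7 0.30. With the rats over the Mb limit, Itgb7 gave 0.083 (AMPH against saline at 22.5 C) and 0.077 (saline at 39 C against 22.5 C), Cd44 0.14 in the latter, and Itgam 0.017 between the AMPH groups and 0.011 for AMPH at 22.5 C against saline at 39 C. Itgb7 between AMPH and saline at 22.5 C gave 0.00078 with all 22 AMPH rats and 0.32 without saline rat 19 and AMPH rat 17. Between saline at 39 C and 22.5 C, Selplg gave -0.015 without a filter, and Cd44 0.034 with DESeq2's size factors and 0.034 by its Wald test. The fit of all groups gave Cd44 0.14 in that comparison, Itgb2 -0.29 and Itgb7 -0.29 for saline at 16 C against 22.5 C, Itgam 0.15 between the AMPH groups, Itgb2 -0.036 for AMPH at 22.5 C against saline at 39 C, and Selplg 0.18 and Itgb7 0.19 for saline at 39 C against 16 C. All rats without a code term gave Itgam 0.073 between the AMPH groups, Selplg 0.10, Itgb2 -0.017, Itgb7 0.022 and Icam1 -0.23 for AMPH at 22.5 C against saline at 39 C, and Itgb7 0.23 for AMPH at 16 C against saline at 39 C. Leaving out 1 rat gave -0.16 to 0.33 for Itgb2 and -0.30 to 0.28 for Itgb7 (AMPH against saline at 22.5 C), -0.10 to 0.26 for Selplg, -0.053 to 0.42 for Itgb2, -0.21 to 0.25 for Itgb7 and -0.16 to 0.36 for Cd44 (saline at 39 C against 22.5 C), and -0.077 to 0.26 for Itgal, -0.087 to 0.42 for Itgb2 and -0.073 to 0.46 for Itgb7 (saline at 16 C against 22.5 C).

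Counts of all genes called moved more. Between AMPH and saline at 22.5 C they were 0 in the report, 201 by the Wald test, 804 with all 22 AMPH rats, 355 in the fit of all groups and 427 without saline rat 19 and AMPH rat 17. Between AMPH and saline at 16 C they were 55, and 407 by the Wald test, 116 with the block, 540 in the same rats without it, 28 with the rats over the Mb limit, 8 to 39 when leaving out 1 saline rat and 0 in the fit of all groups. Between saline at 39 C and at 22.5 C they were 2140, and 3364 by the Wald test, 4351 with the rats over the Mb limit, 402 in the fit of all groups and 270, 389 and 774 without saline rat 17, 18 or 21 of 22.5 C. Between saline at 16 C and at 22.5 C they were 1, and 1355 by the Wald test, 69 with the rats over the Mb limit and 0 to 2096 when leaving out 1 rat, the 2096 without saline rat 19. Between the AMPH groups they were 1924, and 954 with the block. Between AMPH at 22.5 C and saline at 39 C they were 16, and 267 by the Wald test, 526 over all rats without codes, 380 in the fit of all groups, 3 with the block and 1 in the same rats without it. Between AMPH at 16 C and saline at 39 C they were 1513, and 3393 over all rats without codes, 292 with the block and 686 in the same rats without it. Between saline at 39 C and at 16 C they were 1868, and 951 with the block, 1226 in the fit of all groups and 1026 to 1210 when leaving out 1 rat at 16 C. For the difference of the AMPH effects they were 0, and 48 by the Wald test and 20 without codes. With 4 saline rats at 22.5 C, of which rat 19 had the highest Itgam level, the 95% interval of Itgam after AMPH reached from -0.32 to 2.22. Sizes within it are not excluded.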
